A study of Rattus norvegicus with 6 samples.

Results

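The heat-shock chaperones of the cytosol and mitochondria were followed in the messenger RNA of whole rat pancreatic islets, small organs of hormone-secreting cells, at 2 ages. The genes were taken by symbol. They are the HSP70 and HSP110 (Hspa and Hsph), HSP90, HSP60 and HSP10 (Hspd1 and Hspe1), small heat-shock protein (Hspb) and J-domain protein (Dnaja, Dnajb and Dnajc) genes, and the subunits of the CCT chaperonin (Cct2 to Cct8 and Tcp1). Hspa5, Hsp90b1, Dnajb9, Dnajb11 and Dnajc3, chaperones of the endoplasmic reticulum (ER), were left out by name. The choice gave 76 of 17055 genes in the count files. The adult group held islets of 3-month-old male Sprague-Dawley rats (12 weeks, replicates 1, 2 and 3), and the P10 group islets of 10-day-old Sprague-Dawley pups (1.5 weeks, replicates 1, 3 and 4), whose sex the labels do not give. All 6 libraries are labelled as islets of control animals, with no treatment or transgene named. Whether a P10 library pools several pups is not stated, and the tests below can only weigh an age difference against how much the 3 libraries of an age vary. The comparison asks how islet messenger RNA differs between the suckling period and adulthood, as part of a study of postnatal beta-cell maturation.

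Chaperones bind unfolded or partly folded protein and release it through cycles of ATP binding and hydrolysis. J-domain proteins deliver clients to HSP70 and speed its ATP hydrolysis, HSP110 proteins exchange the nucleotide, and HSP90 takes over clients such as kinases and steroid receptors. HSP60 with its lid HSP10 folds proteins inside mitochondria, and the CCT ring folds actin and tubulin in the cytosol. Heat and other proteotoxic stress activate the transcription factor HSF1, which binds inverted repeats of GAA, called heat shock elements, in the promoters of chaperone genes. Beta cells make large amounts of secreted protein, whose folding takes place in the ER, whereas the chaperones described here mostly serve other compartments. The symbols do not follow this border exactly. By general knowledge 8 of the 76 genes encode ER proteins (Hspa13, Dnajb12, Dnajb14, Dnajc10, Dnajc14, Dnajc16, Dnajc18 and Dnajc25), 9 encode mitochondrial ones, and Hspb11, Hspbp1 and Hspbap1 match by name without being heat-shock chaperones themselves.

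Heat shock elements were looked for because HSF1 is a known regulator of some of these genes. A RefSeq table of the GRCr8 assembly held promoter windows, running from 250 bases before to 50 bases after the start of the gene, for 60 of the 76 genes. Of these, 6 held 3 units in alternating orientation, spelled GAA, any 2 bases, TTC, any 2 bases and GAA, or the reverse complement of this spelling, so that both strands were searched. That is 10.0%, beside 0.798% of all 33469 windows in the table and 0.555% of the 7571 windows of genes tested below, while 12.0% of the 50 windows of tested chaperone genes held it. A match is a description of letters and not of binding. The 5 windows below are shown because their genes had different outcomes in the test below (1 higher, 2 lower and 2 not called), with the matching letters in capitals. They lie at chr12:10427118-10427417 on the plus strand, chr9:64084077-64084376 on the plus strand, chr14:101192807-101193106 on the plus strand, chr8:50080264-50080563 on the plus strand and chr5:60638154-60638453 on the plus strand, all in GRCr8, which is not the rn5 build of the counts.
Hsph1: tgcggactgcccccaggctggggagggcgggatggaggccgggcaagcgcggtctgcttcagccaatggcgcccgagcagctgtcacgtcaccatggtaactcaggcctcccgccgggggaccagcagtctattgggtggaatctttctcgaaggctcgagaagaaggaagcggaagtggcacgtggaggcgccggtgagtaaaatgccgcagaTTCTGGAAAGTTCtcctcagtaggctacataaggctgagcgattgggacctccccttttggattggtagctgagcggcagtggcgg
Hspe1: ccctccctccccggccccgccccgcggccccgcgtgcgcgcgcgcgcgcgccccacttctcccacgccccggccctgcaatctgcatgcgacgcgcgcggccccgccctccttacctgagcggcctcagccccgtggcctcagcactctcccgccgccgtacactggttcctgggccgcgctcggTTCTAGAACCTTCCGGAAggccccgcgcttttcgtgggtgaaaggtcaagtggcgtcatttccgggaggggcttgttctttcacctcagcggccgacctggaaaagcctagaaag
Cct4: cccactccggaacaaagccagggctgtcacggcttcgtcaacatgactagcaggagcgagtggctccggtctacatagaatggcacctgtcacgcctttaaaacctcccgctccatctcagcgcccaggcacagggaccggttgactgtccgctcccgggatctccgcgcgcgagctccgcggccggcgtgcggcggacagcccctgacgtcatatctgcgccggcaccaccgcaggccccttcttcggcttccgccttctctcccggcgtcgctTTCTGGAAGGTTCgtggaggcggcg
Hspa8: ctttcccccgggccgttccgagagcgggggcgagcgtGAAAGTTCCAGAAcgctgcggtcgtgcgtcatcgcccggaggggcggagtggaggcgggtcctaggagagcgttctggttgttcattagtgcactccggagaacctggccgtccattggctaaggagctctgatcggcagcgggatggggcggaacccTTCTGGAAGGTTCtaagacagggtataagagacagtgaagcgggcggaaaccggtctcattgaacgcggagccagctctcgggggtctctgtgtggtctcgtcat
Dnaja1: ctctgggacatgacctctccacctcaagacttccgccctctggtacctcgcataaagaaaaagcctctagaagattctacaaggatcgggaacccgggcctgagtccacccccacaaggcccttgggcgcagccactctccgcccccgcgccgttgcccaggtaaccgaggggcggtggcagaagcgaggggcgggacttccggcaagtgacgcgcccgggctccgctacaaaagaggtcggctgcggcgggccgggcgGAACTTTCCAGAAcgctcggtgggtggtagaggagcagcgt
The element of Hsph1 begins 36 bases before the start of the gene. Hspa8 holds a pair, beginning 213 and 55 bases before it. In Cct4 and Dnaja1 the letters lie just inside the transcribed part, at its bases 26 and 10. In Hspe1 both phases overlap in 1 run that begins 65 bases before the start. The sixth gene with a match, Hspd1, stands head to head with Hspe1, with 290 bases between their starts. Their windows share 211 bases, and the element in the Hspd1 window is the same run of the genome read from the other strand.

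Reads assigned to genes numbered 3307415 to 6280144 in adult libraries and 3554194 to 6477825 in P10 libraries. Levels are given as CPM, the reads of a gene scaled to a common library size, with factors from the trimmed mean of M values (TMM), a method that takes the bulk of genes as unchanged. Within the bulk of these islets, fewer cells of a type and less RNA per cell cannot be told apart. The insulin genes Ins1 and Ins2, which identify the tissue, took 46.6% to 52.3% of gene counts in adult libraries and 28.4% to 33.6% in P10 libraries. Of 9 tested beta-cell markers, Ins1 and Ins2 included, 6 were higher in adults and none was lower. Over all genes tested below, 12.5% were higher and 13.8% lower. Markers of several other cell types also differed between the same libraries. Those of delta and pancreatic polypeptide cells were higher in 1 of 5 cases and lower in 1. Of 11 tested fibroblast markers 9 were lower in adults and none was higher, with a summed level of 763 to 1060.0 CPM in adult and 3914 to 4770.3 CPM in P10 libraries and Col1a2 listed at 0 in all. Duct markers were lower in 6 of 7 cases and summed to 977 to 1315 CPM in adult, against 2807 to 3129.9 CPM in P10 libraries. Endothelial markers were lower in 4 of 12 cases, with 191 to 254 CPM in adult, against 307 to 397 CPM in P10 libraries. Macrophage and leukocyte markers were lower in 2 of 11 cases, with 134 to 208 CPM in adult, against 162 to 337 CPM in P10 libraries and Cd3e at 0 in adults. These sums overlap, and the count is near the share of all genes. Genes of dividing cells were lower in 8 of 8 cases, with 66.3 to 78.8 CPM in adult, against 197 to 254 CPM in P10 libraries. Alpha-cell markers summed to 13829 to 18585 CPM in adult and 25125 to 28059 CPM in P10 libraries (1 of 8 higher, 2 lower). Acinar enzymes summed to 1308 to 5182 CPM in adult and 3582 to 5339 CPM in P10 libraries (4 of 13 higher, 5 lower). Immediate early genes, which respond to handling, summed to 951 to 1199 CPM in adult and 845 to 967 CPM in P10 libraries (3 of 14 higher, 2 lower). Among them Fos was 4.45-fold, Zfp36 2.00-fold and Btg2 1.97-fold higher in adults, and Ier3 was 1.94-fold and Myc 2.74-fold lower. The part of these shifts in the chaperone results was not tested.

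Adult islets had lower messenger RNA of 12 chaperone genes and higher messenger RNA of 6. The lower ones included 5 subunits of the CCT ring, the inducible forms of HSP70 and HSP90 (Hspa1b and Hsp90aa1), the mitochondrial co-chaperonin Hspe1 and the J-protein Dnajb1. The higher ones included the mitochondrial HSP70 gene Hspa9, the HSP110 genes Hspa4l and Hsph1, and the small heat-shock gene Hspb6. The main constitutive forms, Hspa8 and Hsp90ab1, did not pass the test, although both were called lower with library totals alone (log2 fold change -0.41 and -0.56, FDR = 0.0247 and 0.00877). Of the 76 genes 6 had no count in any library (Cct8l1, Dnajb7, Dnajb8, Dnajc5b, Dnajc5g and Hspb3), and 7 had counts but fell below the expression filter (Cct6b, Dnajb3, Hspa1a, Hspa1l, Hspa12b, Hspb2 and Hspb9). The remaining 63 were tested with all other genes by edgeR's quasi-likelihood test, with a false discovery rate (FDR) over 10124 genes and a threshold of 0.05.

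Against all genes tested, 12.5% were higher and 13.8% lower in adults, beside 9.52% and 19.0% of the 63 chaperone genes. The median log2 fold change, adult over P10, was -0.23 over the 63 and -0.03 over all genes, and the fitted values of the 63 ran from -2.72 to 1.60. All 3 adult libraries lay above all 3 P10 libraries for 14 of the 63 genes, where 20.0% of all genes did so, and below them for 20, where 22.3% did, so that the ages were apart for 34 of the 63, beside 42.3% of all genes. Neither share of calls stood far from that of the whole table, so the account below is of particular genes and families rather than of the whole list.

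**Figure D1:**
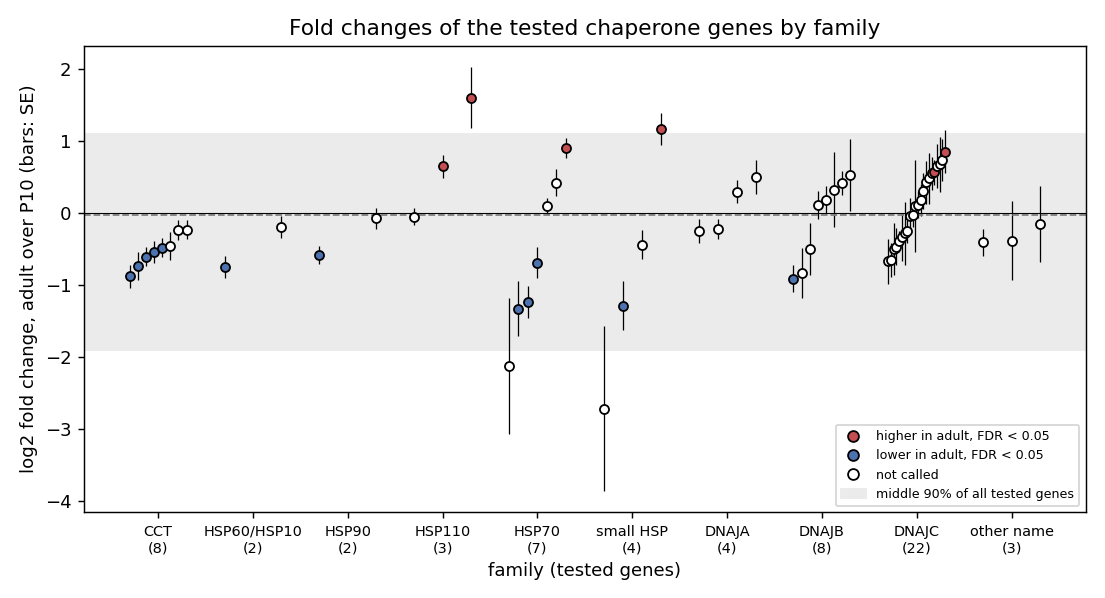
Fitted log2 fold changes, adult over P10, of the 63 tested chaperone genes by family, with standard errors as bars and the number tested in brackets. The grey band spans the middle 90% of all 10124 tested genes, from -1.91 to 1.10, and the dashed line is their median. Every tested CCT subunit lies below 0, and the other families hold values on either side or few genes.

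The 76 genes together took 0.456%, 0.408% and 0.483% of gene counts in adult replicates 1, 2 and 3, and 0.732%, 0.725% and 0.625% in P10 replicates 1, 3 and 4. With the insulin genes taken out of the totals these shares were 0.855%, 0.854% and 0.914% in adult libraries and 1.10%, 1.01% and 0.922% in P10 libraries, which still do not overlap but nearly meet. On the TMM scale the sums were 5220, 5203 and 5570 CPM in adult and 6432, 5764 and 5392 CPM in P10 libraries, where adult replicate 3 lies above P10 replicate 4. The ages were farthest apart in the share of all gene counts and overlapped on the TMM scale. Hspa8, Hsp90ab1 and Hsp90aa1 gave 47.8% to 50.0% of the chaperone reads in adult libraries and 45.2% to 50.8% in P10 libraries. These are shares of reads and not levels per length of transcript.

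Among the HSP70 genes of the cytosol, the inducible Hspa1b was lower in adults and the constitutive Hspa8 did not pass. Hspa8 encodes HSC70, the constitutive form, which also strips clathrin from vesicles. It had 1149.8, 1145 and 1236 CPM in adult libraries, against 1217, 1121 and 985 CPM in P10 libraries. The groups overlapped, and the log2 fold change of 0.09 ± 0.11 (SE) did not pass (edgeR FDR = 0.617). Hspa1b, an HSP70 gene with little expression until stress induces it, had 21.4, 30.4 and 21.8 CPM in adult libraries, against 70.1, 57.1 and 45.2 CPM in P10 libraries. All adult values lay below all P10 values, and Hspa1b was 2.36-fold lower in adults (log2 fold change -1.24 ± 0.22 (SE), edgeR FDR = 5.71e-04). That call stood under all 13 alternative settings, with log2 fold changes from -1.74 to -1.06. Its neighbour Hspa1a, nearly identical in its coding part, is listed with 1 read in P10 replicate 3 and none elsewhere. Since reads that fit more than 1 place were not counted, the division of reads between Hspa1a and Hspa1b is uncertain. Such reads made up 15.1% to 17.8% of reads in adult libraries, against 23.4% to 27.7% in P10 libraries, and their part in these values was not tested.

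The third close relative, Hspa1l, known for its expression in testis, had 0, 12 and 3 reads in P10 libraries and none in the adult ones. Hspa1l fell below the filter and was not tested. With 3 counts put in for the adult group its level was 3.04-fold lower in adults, which is no bound on an age difference. Of the 15 reads 12 lay in P10 replicate 3, and P10 replicate 1 had none, as in the adults. Hspa2, an HSP70 gene needed for sperm formation in mice, had 4.15, 11.4 and 6.98 CPM in adult libraries, against 25.2, 15.5 and 15.3 CPM in P10 libraries. The groups did not overlap, and Hspa2 was 2.52-fold lower (log2 fold change -1.33 ± 0.38 (SE), edgeR FDR = 0.0165). The call was lost without adult replicate 1 (FDR = 0.0742) or P10 replicate 1 (FDR = 0.0715). Hspa14, which works at the ribosome on newly made chains, had 21.4, 26.4 and 24.2 CPM in adult libraries, against 46.4, 37.1 and 32.5 CPM in P10 libraries. It was 1.62-fold lower without overlap (edgeR FDR = 0.0234). The call of Hspa14 was lost with the replicate block (FDR = 0.0755), and without adult replicate 1 or 3 or P10 replicate 1 or 3 (FDR = 0.0944, 0.056, 0.0822 and 0.054). Its ribosomal partner Dnajc2 lay close to the threshold, with 15.9 ± 0.821 CPM in adults and 25.3 ± 3.05 CPM at P10 (SD, n = 3 each; edgeR FDR = 0.0526).

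A pair of distant HSP70 relatives was low in both groups. Hspa12a had 6, 2 and 0 reads in adult libraries, against 36, 23 and 11 reads in P10 libraries, so its normalised count was 5.31-fold higher at P10 with a 95% counting interval of 2.55 to 12.8. It passed the filter through the P10 libraries alone and was not called (log2 fold change -2.13 ± 0.94 (SE), edgeR FDR = 0.110). Hspa12b, known from endothelium, had 0, 3 and 0 reads in adult libraries, against 13, 41 and 26 reads in P10 libraries, a ratio of P10 to adult of 16.2 (5.35 to 80.2). It fell below the filter, and with no filter it was called lower in adults. Such intervals cover counting error only. Hspa13, an ER-associated HSP70, had 49.8, 36.3 and 47.0 CPM in adult libraries, against 34.7, 33.4 and 31.6 CPM in P10 libraries. These do not overlap, yet the log2 fold change of 0.42 ± 0.19 (SE) did not pass (edgeR FDR = 0.117), while scaling to library totals alone gave it a negative sign.

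**Figure D2:**
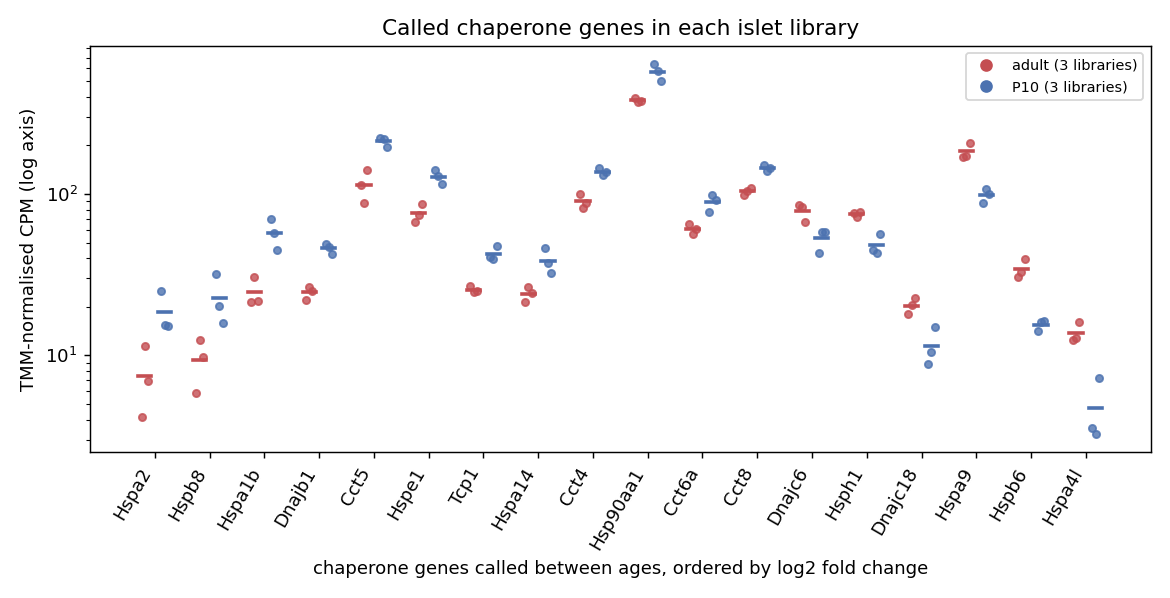
Normalised CPM on a log axis of the 18 called chaperone genes in the 3 adult (left of each pair) and 3 P10 libraries (right), ordered by log2 fold change, with short lines at the group means. In none of the 18 do the groups overlap, from Hspa2, lowest relative to P10, to Hspa4l, highest.

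Of the cytosolic HSP90 pair, the inducible gene was lower in adults and the constitutive gene did not pass. Hsp90aa1, the form that stress induces, had 394, 373 and 375 CPM in adult libraries, against 636, 577 and 504 CPM in P10 libraries. Every adult library lay below every P10 library, and Hsp90aa1 was 1.50-fold lower (log2 fold change -0.59 ± 0.12 (SE), edgeR FDR = 0.00185), called under all 13 alternatives. Hsp90ab1, the constitutive form, had 1065, 969 and 1165 CPM in adult libraries, against 1414, 1016 and 948 CPM in P10 libraries. The groups overlapped, with P10 replicate 1 highest, and the difference did not pass (log2 fold change -0.08 ± 0.14 (SE), edgeR FDR = 0.737). Without P10 replicate 1 its sign turned, to 0.13.

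Of the HSP110 genes, whose products recharge HSP70 with ATP, 2 of 3 were higher in adults, beside 12.5% of all genes. Hspa4l had 12.4, 12.8 and 16.2 CPM in adult libraries, against 3.53, 3.27 and 7.28 CPM in P10 libraries. No P10 library reached the lowest adult one, and Hspa4l was 3.02-fold higher (log2 fold change 1.60 ± 0.43 (SE), edgeR FDR = 0.0114). Hsph1, the HSP105 gene whose window holds an element 36 bases before its start, had 76.8, 72.2 and 77.1 CPM in adult libraries, against 45.3, 43.4 and 56.6 CPM in P10 libraries. Hsph1 was 1.56-fold higher without overlap (log2 fold change 0.64 ± 0.16 (SE), edgeR FDR = 0.00808). Both are counted among the textbook heat-inducible genes, and so went the other way from Hspa1b, Hsp90aa1 and Dnajb1. Hspa4, the third gene, had 137, 136 and 127 CPM in adult libraries, against 136, 138 and 141 CPM in P10 libraries, which overlap (log2 fold change -0.05 ± 0.12 (SE), edgeR FDR = 0.792). With library totals alone Hspa4l and Hsph1 kept positive log2 fold changes (1.11 and 0.15) but not their calls (FDR = 0.0531 and 0.519), and Hspa4 was called lower (-0.55, FDR = 0.00623).

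Of the mitochondrial chaperones, the HSP70 gene was higher in adults and the HSP10 gene lower. Hspa9 encodes mortalin, the mitochondrial HSP70 that pulls precursors through the inner membrane and folds them. It had 170.1, 172 and 209 CPM in adult libraries, against 88.4, 108 and 99.5 CPM in P10 libraries. No adult library came near a P10 library, and Hspa9 was 1.86-fold higher (log2 fold change 0.90 ± 0.14 (SE), edgeR FDR = 1.92e-04, the smallest of all 63 chaperone genes). With library totals alone the log2 fold change was 0.40 and the call was lost (FDR = 0.0603). Hspe1, the HSP10 lid, had 67.1, 73.7 and 87.0 CPM in adult libraries, against 141, 129 and 115 CPM in P10 libraries. It was 1.69-fold lower, again without overlap (log2 fold change -0.75 ± 0.15 (SE), edgeR FDR = 0.00144), and was called under all 13 alternatives. Hspd1, the HSP60 ring that this lid closes, had 71.9, 70.7 and 61.5 CPM in adult libraries, against 89.5, 73.7 and 69.9 CPM in P10 libraries. Although Hspd1 shares a promoter region with Hspe1, its groups overlapped and it did not pass (log2 fold change -0.20 ± 0.16 (SE), edgeR FDR = 0.386).

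Dnaja3, a J-protein of Hspa9, had 56.0, 55.0 and 54.7 CPM in adult libraries, against 49.8, 42.5 and 42.7 CPM in P10 libraries. These do not overlap but did not pass (log2 fold change 0.29 ± 0.16 (SE), edgeR FDR = 0.210). Of the other mitochondrial genes chosen by symbol (Dnajc4, Dnajc11, Dnajc15, Dnajc28 and Dnajc30) none was called. Mitochondrial partners outside the symbol rule were followed too. The quality-control proteases Afg3l2 and Spg7, subunits of the same inner-membrane protease, were 1.70-fold and 1.98-fold higher in adults (edgeR FDR = 0.00257 and 0.00591). Afg3l2 had 92.3, 114 and 81.7 CPM in adult libraries, against 52.1, 62.4 and 53.6 CPM in P10 libraries, and Spg7 had 44.6, 56.1 and 36.2 CPM in adult libraries, against 18.2, 21.1 and 30.1 CPM in P10 libraries. For both the groups were apart. Clpx, an unfoldase of the matrix, had 12.1, 15.4 and 23.7 CPM in adult libraries, against 4.61, 10.5 and 7.53 CPM in P10 libraries, and was 2.29-fold higher (edgeR FDR = 0.0312), a call lost without adult replicate 2 or 3 or P10 replicate 1 or 4 (FDR = 0.0599, 0.182, 0.0703 and 0.0781). These 3 were the called ones among 9 tested mitochondrial partners, beside 12.5% higher and 13.8% lower of all genes. Library totals alone removed the 3 calls, and the replicate block removed those of Afg3l2 and Clpx (FDR = 0.0980 and 0.102). Trap1, the mitochondrial HSP90, had 52.6, 36.3 and 43.0 CPM in adult libraries, against 47.1, 45.8 and 51.9 CPM in P10 libraries, and did not pass (edgeR FDR = 0.642).

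The CCT chaperonin, a double ring of 8 different subunits that folds actin and tubulin, moved in 1 direction. All 8 tested subunits had negative log2 fold changes, between -0.88 and -0.24 with a median of -0.52, and 5 of them were called lower. Over all 10124 tested genes 5232 had negative log2 fold changes and 13.8% were called lower. The sign of all 8 was negative under each of the 13 alternatives. The number called ran from 1, with the replicate block, to 8, with library totals alone, which lowered the middle of the whole table. Cct5 had 114, 88.0 and 141 CPM in adult libraries, against 221, 220.1 and 197 CPM in P10 libraries. It was 1.85-fold lower (log2 fold change -0.88 ± 0.16 (SE), edgeR FDR = 6.74e-04) and the subunit called under all 13 alternatives. Tcp1, the alpha subunit, had 27.0, 24.6 and 25.2 CPM in adult libraries, against 40.8, 39.7 and 47.8 CPM in P10 libraries. Cct4, whose first transcribed bases hold a heat shock element, had 100.3, 81.4 and 88.3 CPM in adult libraries, against 144, 131 and 137 CPM in P10 libraries. Tcp1 was 1.67-fold and Cct4 1.53-fold lower (edgeR FDR = 0.00962 and 0.00361), each without overlap.

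Cct8 had 98.2, 105 and 109 CPM in adult libraries, against 152, 139 and 146 CPM in P10 libraries, and was 1.40-fold lower (edgeR FDR = 0.0106). Cct6a had 65.4, 56.8 and 61.1 CPM in adult libraries, against 77.2, 99.3 and 92.5 CPM in P10 libraries, and was 1.47-fold lower (edgeR FDR = 0.0151). Their groups did not overlap either. With the replicate block Tcp1, Cct4, Cct6a and Cct8 did not pass (FDR = 0.159, 0.0853, 0.193 and 0.117), which left Cct5. Without adult replicate 1 Cct8 did not pass (FDR = 0.0565), nor did Tcp1 without P10 replicate 4 (FDR = 0.0505). Cct6a did not pass without adult replicate 2, P10 replicate 3 or P10 replicate 4 (FDR = 0.0679, 0.0812 and 0.0532).

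The remaining subunits overlapped between the ages. Cct2 had 105, 128 and 105 CPM in adult libraries, against 141, 131 and 127 CPM in P10 libraries (edgeR FDR = 0.208). Cct7 had 183, 219.5 and 195 CPM in adult libraries, against 261, 214 and 228 CPM in P10 libraries (edgeR FDR = 0.200). For both, adult replicate 2 lay inside the range of the P10 libraries. Cct3 had 63.3, 57.9 and 85.0 CPM in adult libraries, against 124, 85.9 and 76.5 CPM in P10 libraries (edgeR FDR = 0.0925), and was called lower without adult replicate 3 (FDR = 0.0405). The sum of the 8 subunits was 757, 762 and 809 CPM in adult libraries, against 1161, 1059 and 1051 CPM in P10 libraries, with no overlap. Within that sum Cct5 took 11.5% to 17.5% of the subunit reads in adult libraries, against 18.7% to 20.8% in P10 libraries, and Cct7 took 24.1% to 28.8% in adult libraries, against 20.2% to 22.5% in P10 libraries. Cct6b, a form known from testis, had 8 reads over the adult libraries and 10 over the P10 libraries.

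**Figure D3:**
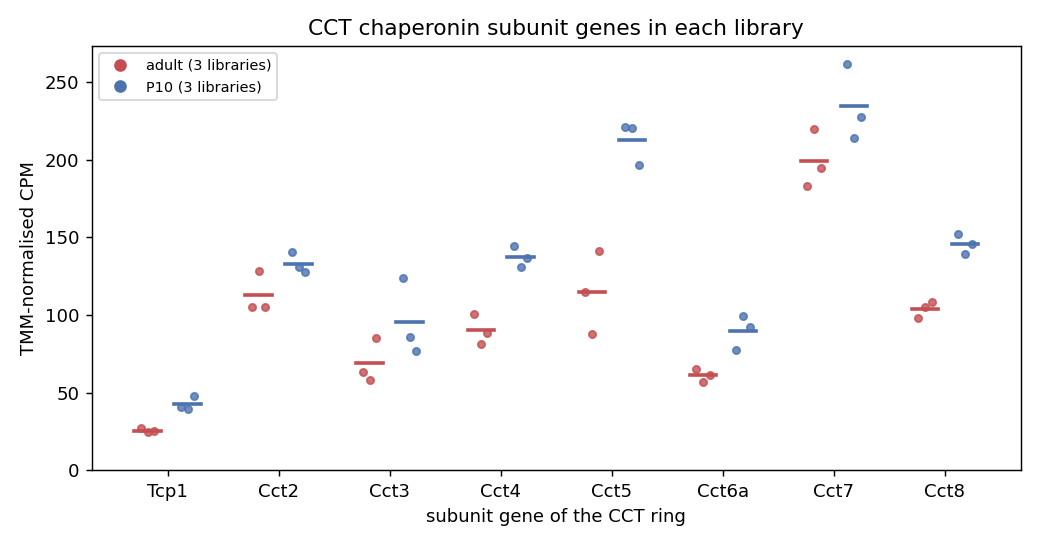
Normalised CPM of the 8 tested CCT subunit genes in the 3 adult (left) and 3 P10 libraries (right), with short lines at the group means. Tcp1, Cct4, Cct5, Cct6a and Cct8 show no overlap between the ages, while Cct2, Cct3 and Cct7 do.

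Partners that hand nascent chains to CCT, or work on tubulin beside it, were read from the co-chaperone list. All 8 tested genes of prefoldin and CCT partners had negative log2 fold changes, from -0.84 to -0.07, beside 5232 of all 10124 tested genes. Of the 8 genes 2 were called lower, a count near the 13.8% of all genes. Tbca, a tubulin folding cofactor, had 41.5, 35.6 and 45.7 CPM in adult libraries, against 89.8, 61.1 and 70.2 CPM in P10 libraries, and was 1.79-fold lower (edgeR FDR = 0.00322). Its call was lost with the replicate block (FDR = 0.0697). The other was Pdcl3, a phosducin-like protein that binds CCT, with 32.1 ± 7.54 CPM in adults and 53.0 ± 9.14 CPM at P10 (SD, n = 3 each; edgeR FDR = 0.0197). The call of Pdcl3 was lost with the replicate block too. Genes of dividing cells, which fell in the same libraries, summed to 66.3 to 78.8 CPM in adult and 197 to 254 CPM in P10 libraries, and their part in the CCT result was not tested.

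Small heat-shock proteins, which hold unfolded clients without using ATP, went both ways. Hspb6, the HSP20 gene known from muscle, had 30.4, 33.0 and 39.8 CPM in adult libraries, against 14.1, 16.0 and 16.3 CPM in P10 libraries. Adult levels were 2.24-fold higher without overlap (log2 fold change 1.16 ± 0.22 (SE), edgeR FDR = 0.00125). Hspb6 was the only chaperone gene called higher under all 13 alternatives, library totals alone included (0.67, FDR = 0.0392). Hspb8, which works with Bag3 in the disposal of aggregates, had 5.88, 12.5 and 9.73 CPM in adult libraries, against 32.1, 20.4 and 15.8 CPM in P10 libraries. It was 2.44-fold lower (log2 fold change -1.29 ± 0.34 (SE), edgeR FDR = 0.0115), and the call was lost without adult replicate 1 (FDR = 0.0593) or P10 replicate 1 (FDR = 0.061). Hspb1, the HSP27 gene, had 29.0, 28.6 and 35.6 CPM in adult libraries, against 39.5, 50.8 and 37.1 CPM in P10 libraries. The groups do not overlap but lie close, and it did not pass (log2 fold change -0.44 ± 0.20 (SE), edgeR FDR = 0.116).

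Hspb7, known from heart and muscle, had 3, 0 and 0 reads in adult libraries, against 15, 15 and 8 reads in P10 libraries. The ratio of P10 to adult was 7.69 with a counting interval of 2.44 to 39.0, and the gene passed the filter through the P10 libraries alone and was not called (edgeR FDR = 0.0934). Hspb2 (4 reads over the adult libraries, 30 over the P10 libraries) and Hspb9 (0 over the adult libraries, 4 over the P10 libraries) were below the filter. Cryab, alpha-B crystallin, belongs to the same family under another symbol. Cryab had 6.22, 8.43 and 2.57 CPM in adult libraries, against 20.1, 30.6 and 16.7 CPM in P10 libraries, and was 4.14-fold lower (log2 fold change -2.05 ± 0.41 (SE), edgeR FDR = 0.0016). Bag3, the HSP70 partner of Hspb8, had 17.6, 8.43 and 8.26 CPM in adult libraries, against 29.7, 38.5 and 28.4 CPM in P10 libraries, and was 2.87-fold lower (log2 fold change -1.52 ± 0.30 (SE), edgeR FDR = 0.00157). Cryab and Bag3 were called lower under all 13 alternatives. Fibroblast markers were lower in the same libraries (763 to 1060.0 CPM in adult, 3914 to 4770.3 CPM in P10 libraries), as were endothelial ones, and their part in these values was not tested.

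J-domain proteins were the largest group, with 34 of 39 genes tested, of which 2 were called higher and 1 lower, beside 12.5% and 13.8% of all genes. Dnajb1, the stress-induced HSP40 that works with HSP70, had 22.1, 26.4 and 25.2 CPM in adult libraries, against 49.4, 47.3 and 42.5 CPM in P10 libraries. Adult and P10 values were well apart, and Dnajb1 was 1.89-fold lower (log2 fold change -0.92 ± 0.19 (SE), edgeR FDR = 0.00211), a call made under all 13 alternatives. The general J-proteins of the cytosol did not pass. Dnaja1, whose window holds an element, had 151, 169 and 189 CPM in adult libraries, against 205, 216 and 176 CPM in P10 libraries (log2 fold change -0.23 ± 0.13 (SE), edgeR FDR = 0.232). Dnaja2 had 45.6, 53.1 and 59.5 CPM in adult libraries, against 59.5, 73.1 and 56.8 CPM in P10 libraries (log2 fold change -0.26 ± 0.17 (SE), edgeR FDR = 0.303). Dnajb6, a suppressor of aggregation, had 37.3, 41.0 and 36.9 CPM in adult libraries, against 28.5, 41.0 and 37.9 CPM in P10 libraries (edgeR FDR = 0.745). For each of these 3 the groups overlap, and the sign of Dnajb6 turned under library totals alone and without P10 replicate 1.

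The J-proteins of vesicle traffic were read with secretion in mind. Dnajc6, auxilin, which recruits HSC70 to uncoat clathrin vesicles and is known from neurons, had 85.4, 82.8 and 67.2 CPM in adult libraries, against 43.0, 58.1 and 58.3 CPM in P10 libraries. It was 1.48-fold higher without overlap (log2 fold change 0.56 ± 0.17 (SE), edgeR FDR = 0.0249). The call was lost without adult replicate 1 or 2 or P10 replicate 1 (FDR = 0.105, 0.0887 and 0.0623). It was also lost with the replicate block (FDR = 0.142), and library totals alone left a log2 fold change of 0.06. Dnajc5, the cysteine string protein of secretory vesicles, had 24.6, 34.5 and 19.1 CPM in adult libraries, against 22.1, 21.7 and 18.7 CPM in P10 libraries. The groups overlapped through adult replicate 3, and it did not pass (log2 fold change 0.30 ± 0.25 (SE), edgeR FDR = 0.422), with a sign that turned under library totals alone.

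Dnajc18, an ER membrane J-protein, had 18.0, 20.5 and 22.6 CPM in adult libraries, against 8.82, 10.5 and 15.1 CPM in P10 libraries. Its 1.80-fold higher level (log2 fold change 0.85 ± 0.29 (SE), edgeR FDR = 0.0444) lay at the threshold and was lost without any library but P10 replicate 4, with FDRs of 0.0697, 0.0996 and 0.127 without adult replicates 1, 2 and 3, and 0.0883 and 0.109 without P10 replicates 1 and 3. It was also lost with DESeq2 (FDR = 0.0646), the stricter filter (FDR = 0.0517), the replicate block (FDR = 0.103) and library totals alone (FDR = 0.381). Dnajc12, a partner of the aromatic amino acid hydroxylases, had 31.1, 28.6 and 26.4 CPM in adult libraries, against 17.0, 18.3 and 24.0 CPM in P10 libraries. These do not overlap, but the difference did not pass (log2 fold change 0.55 ± 0.23 (SE), edgeR FDR = 0.0956). Of the 22 tested Dnajc genes 12 had positive and 10 negative log2 fold changes, from -0.68 to 0.85, and the 20 that were not called include 4 with all adult libraries above all P10 libraries (Dnajc12, Dnajc16, Dnajc22 and Dnajc27) and 3 with all below (Dnajc2, Dnajc8 and Dnajc17). With the called pair added, 6 of the 22 lay above and 3 below, beside 20.0% and 22.3% of all genes.

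Ratios between 2 chaperone genes of the same library do not depend on how libraries are scaled to each other. The 7 ratios below were chosen after the values were seen and pair genes of 1 machine or of related function. Reads of Hsp90aa1 per read of Hsp90ab1 were 0.370, 0.385 and 0.322 in adult libraries, against 0.450, 0.568 and 0.532 in P10 libraries. Hspa1b reads per Hspa8 read were 0.0186, 0.0266 and 0.0177 in adult libraries, against 0.0576, 0.0509 and 0.0458 in P10 libraries. In both pairs the inducible form was lower relative to its constitutive relative in each adult library. Hspe1 reads per Hspd1 read were 0.933, 1.04 and 1.41 in adult libraries, against 1.58, 1.75 and 1.65 in P10 libraries, where adult replicate 3 comes nearest to the P10 values. Hspa9 reads per Hspd1 read were 2.37, 2.44 and 3.39 in adult libraries, against 0.988, 1.47 and 1.42 in P10 libraries. Relative to the chaperonin ring, the mitochondrial HSP70 was higher and the co-chaperonin lower in each adult library.

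Hsph1 reads per Hspa4 read were 0.559, 0.532 and 0.605 in adult libraries, against 0.333, 0.315 and 0.400 in P10 libraries. Hspa4l reads per Hspa4 read were 0.0907, 0.0946 and 0.127 in adult libraries, against 0.0259, 0.0237 and 0.0515 in P10 libraries. Dnajb1 reads per Dnaja1 read were 0.146, 0.157 and 0.133 in adult libraries, against 0.241, 0.219 and 0.242 in P10 libraries. In none of the 7 ratios did the groups overlap. The exact two-sided permutation p was 0.1 for each, also after adjustment over the 7, and 0.1 is the smallest p that 3 against 3 libraries allow. Since each of the 7 pairs sets a called gene beside an uncalled one, the separation of the groups follows from the choice and the ratios are a description.

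**Figure D4:**
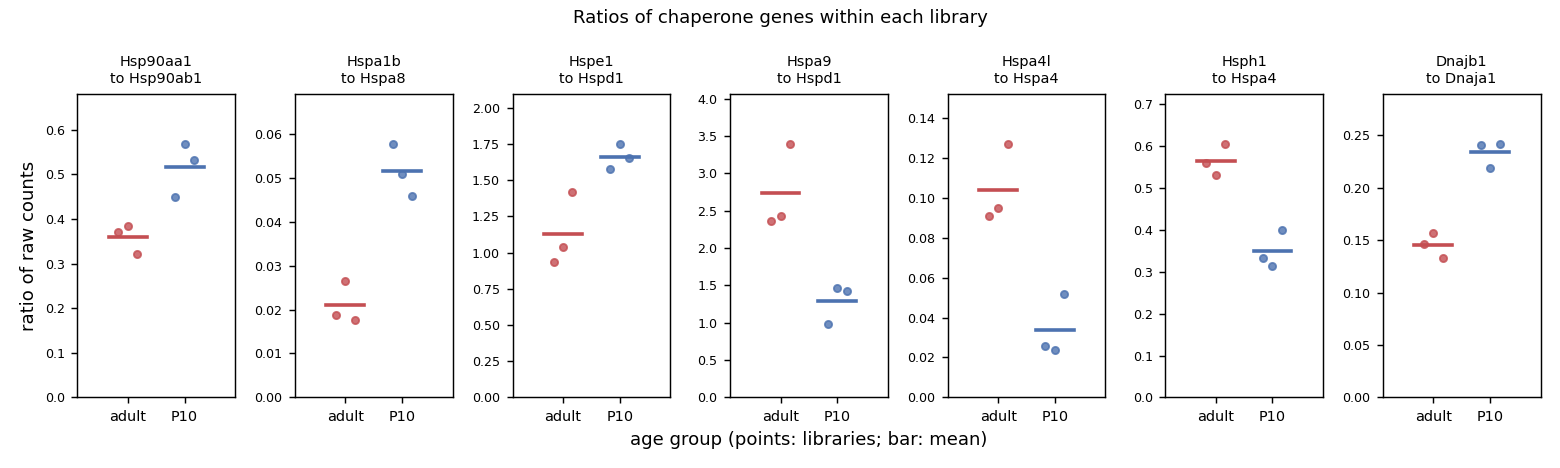
Ratios of raw read counts of 7 pairs of chaperone genes within each of the 3 adult (left) and 3 P10 libraries (right), each on its own axis from 0, with short lines at the group means. The groups are separate in each panel, with adult libraries lower for Hsp90aa1, Hspa1b, Hspe1 and Dnajb1 and higher for Hspa9, Hspa4l and Hsph1 relative to the gene named second.

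Co-chaperones and regulators were read from a list of 57 genes, of which 52 had a row and 47 were tested. In adults 3 of the 47 were higher and 9 lower, beside 12.5% and 13.8% of all genes, and the median log2 fold change was -0.19. Without adult replicate 2, 2 were higher and 5 lower. The 3 higher ones were Afg3l2, Spg7 and Clpx. Of 17 tested HSP90 co-chaperones 5 were lower and none higher. Nudc, a co-chaperone also needed for nuclear movement, had 58.1, 51.3 and 52.0 CPM in adult libraries, against 96.3, 78.3 and 72.6 CPM in P10 libraries, and was 1.54-fold lower (edgeR FDR = 0.0100). The other lower ones were Cdc37, which brings kinases to HSP90, Fkbp4, Ttc4 and Pih1d1, with log2 fold changes of -0.44, -0.38, -0.85 and -1.42 (edgeR FDR = 0.0184, 0.0483, 0.0376 and 0.0156). These 4, like Pdcl3, were named after their values were seen. With the replicate block Nudc did not pass (FDR = 0.0707). Of the 9 lower genes of the list, that block left only Bag3 and Cryab called.

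The heat shock factors themselves did not pass. Hsf1, the main activator, had 29.0, 52.8 and 43.0 CPM in adult libraries, against 28.1, 39.4 and 39.1 CPM in P10 libraries (log2 fold change 0.23 ± 0.23 (SE), edgeR FDR = 0.496). Hsf2 had 8.99, 11.4 and 6.06 CPM in adult libraries, against 5.97, 9.96 and 7.77 CPM in P10 libraries (log2 fold change 0.14 ± 0.42 (SE), edgeR FDR = 0.849). For both the groups overlap, and messenger RNA does not measure the activity of these factors, which is set on the protein. Of 11 tested genes on a textbook list of heat-inducible chaperones, 2 were higher (Hsph1 and Hspa4l), 4 lower (Hspa1b, Dnajb1, Hsp90aa1 and Hspe1) and 5 not called, beside 12.5% higher and 13.8% lower among all genes, with a median log2 fold change of -0.23. The 5 not called were Hspa8, Hspd1, Dnaja1, Hspb1 and Dnajb4, so that Hspa8, described above as the constitutive form, is on this list too. Of the 6 genes with an element in their window, Hsph1 was higher, Hspe1 and Cct4 were lower, and Hspa8, Hspd1 and Dnaja1 did not pass. Hspe1 and Hspd1 count the same run of letters. Hspa1b, Hsp90aa1 and Dnajb1 are not among the 6, for lack of either a window or a match in it, so these outcomes do not cover them. Of the 5 ER chaperones left out by name, Dnajb9 was 1.89-fold higher (edgeR FDR = 0.0056), and Hspa5, Hsp90b1, Dnajb11 and Dnajc3 did not pass, with log2 fold changes of 0.31, 0.21, 0.10 and 0.28 (edgeR FDR = 0.0555, 0.248, 0.674 and 0.139). The Dnajb9 call was lost with library totals alone (FDR = 0.148) and with the replicate block (FDR = 0.0666). Hspa5 was called higher with DESeq2 (FDR = 0.00803), with no filter (FDR = 0.0378) and without adult replicate 2 (FDR = 0.023). Library totals alone gave Hspa5 a negative log2 fold change (-0.18).

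All directions are relative to the bulk of the genes. Scaling by library totals alone, without composition factors, moved the middle of the whole table by -0.49 on the log2 scale. It then gave 1 chaperone gene higher, Hspb6, and 34 lower, beside 343 genes higher and 3612 lower over the whole table (8.67% and 91.3% of its calls, against 47.6% and 52.4% with TMM). The 12 genes called lower were all called lower under that scaling too. A shift in that direction favours lower calls, so this setting was no check on them. Of the 12 lower genes, Hspa1b, Dnajb1, Cct5, Hspe1 and Hsp90aa1 were called under every one of the 13 settings, as Hspb6 was among the higher ones.

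**Figure D5:**
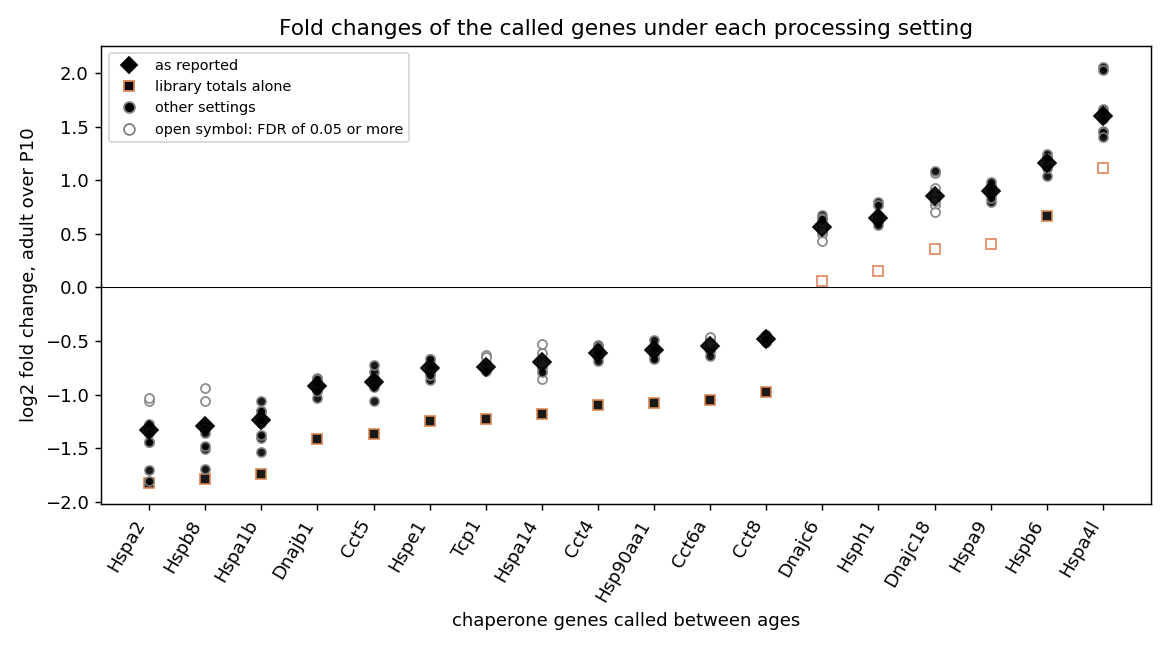
Log2 fold changes, adult over P10, of the 18 called chaperone genes as reported (diamonds), with library totals alone (squares) and under the other 12 settings (circles), where open symbols mark an FDR of 0.05 or more. No called gene changes its sign, and library totals alone place every value below the reported one, leaving Hspb6 as the 1 higher gene still called.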

How the data were processed

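Polyadenylated RNA was sequenced as single-end libraries without strand, per the labels' protocols, so a read in 2 overlapping genes, or on either strand, cannot be attributed by orientation. Per the submitters' processing notes, Bowtie2, TopHat2 2.0.10 and HTSeq were used on rn5. The deposited values are raw read counts per gene symbol in 1 file for each library, and reads without a unique place are listed apart (15.1% to 17.8% of all assigned and listed reads in adult and 23.4% to 27.7% in P10 libraries), so near-identical copies lose reads. Rows that summarise unassigned reads (5 in each file) were removed first. A deposited table of all libraries with the same counts was not used.

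Counts were filtered by filterByExpr (minimum count 10, total 15), scaled by TMM and fitted with edgeR 4.0.16 in R 4.3.3 with age as the only term. The FDR is Benjamini-Hochberg over all 10124 genes tested, standard errors are the log2 fold change over the square root of F, and folds are fitted ones. On simulated counts of this comparison, with 9930 genes tested, the fit called 54.1% of the 98 genes given a 2-fold change, 86.5% of the 96 given a 4-fold change, and 2 others. The counting intervals are exact 95% ones. The chaperone genes, lists and tests were chosen with earlier results of these data known. By rule, a fixed set of genes, the 3 smallest p per family and direction and all called changes of at least 2-fold were named with values, and other names were chosen after values were seen. The 13 alternatives changed the scaling (relative log expression, library totals alone, TMM with hormone and acinar genes removed), the tool (DESeq2 1.42.0), the filter (none, or 5 CPM in 3 libraries), the design (a replicate block) or the libraries (each of 6 left out in turn). Figures were drawn with matplotlib 3.10.9.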

Additional observations from a re-analysis of the deposited data

How the results depend on the processing

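Over the 13 alternatives, the 34 named or called chaperone genes gave 441 values. Of these 387 kept their direction and side of the threshold, 35 lost the call, 11 gained one in the same direction and 8 turned sign, all 8 of genes not called as reported. Of those 8, Hspa8 became called lower with library totals alone (FDR = 0.0247). Library totals alone moved the counts most, to 1 chaperone gene higher and 34 lower (6 and 12 as reported), 0 and 27 of the co-chaperone list (3 and 9), and 343 and 3612 of all genes (1265 and 1394). Higher genes were then 8.67% of all calls (47.6% as reported). Library totals turned Hspa8 (-0.41), Hspa13 (-0.0688), Dnaja3 (-0.20), Dnajb6 (-0.40), Dnajc5 (-0.21), Hsf1 (-0.28), Hsf2 (-0.38), Hspa5 (-0.18), Hsp90b1 (-0.27), Dnajb11 (-0.39) and Dnajc3 (-0.21). The replicate block, with the numbers 1 and 3 shared by the groups and 1 residual degree of freedom, left 4 chaperone genes higher and 7 lower, 1 and 2 of the co-chaperone list, and 679 and 729 of all genes. Of the CCT calls it left Cct5. It turned Dnajc5 (-0.0187), Hsf2 (-0.0771), Trap1 (0.0326) and Dnajb11 (-0.0371). Same-numbered libraries did not deviate together (r = -0.02 and -0.005 across genes), but 2 such pairs cannot show whether they share a litter or day. No label says that a number marks a shared litter or day. The deposited columns number the P10 libraries differently from the titles used here, so whether the libraries are paired is not known.

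Leaving out single libraries gave 4 to 6 chaperone genes higher and 8 to 12 lower, 2 to 3 and 5 to 7 of the co-chaperone list, and 923 to 1262 and 1040 to 1266 of all genes. It turned Hsp90ab1 without P10 replicate 1 (0.13), and gave log2 fold changes from -0.0315 to 0.227 for Dnajb6, from -0.0812 to 0.370 for Hsf2 and from -0.00148 to 0.277 for Dnajb11. The cause of these changes was not tested. The other scalings gave the same 18 calls, DESeq2 and no filter added Hspa12b (and Hspa5 among the ER chaperones), DESeq2 lost Dnajc18, and the stricter filter added Dnajc2 and Dnajc8 and lost Dnajc18. At this depth a library's floor of 3 counts was 0.407 to 1.10 CPM, so differences of genes such as Hspa1a, Hspb9 or Cct6b were not detectable.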
